A study of Rattus norvegicus with 66 samples.

Results

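Genes of 3 dopamine receptors and 3 genes that mark dopamine-responsive neurons of the striatum were followed in dorsal hippocampus of rat pups: Drd1, Drd2, Drd5, Ppp1r1b, Adora2a and Rgs9. They were found by symbol in the gene table that goes with the count files, where each symbol matched 1 row, so that 6 of 37777 rows are described. Long Evans dams received Aroclor 1254 (a mixture of polychlorinated biphenyls) or bisphenol A in chow or chlorpyrifos (an organophosphate insecticide) by subcutaneous injection, before birth and during lactation, and RNA of the offspring was sequenced at PND 6. The 13 groups held 64 pups, 41 males and 23 females, from 44 litters. The question of the study was whether the 3 chemicals share changes of gene expression in the developing hippocampus.

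Control males were 4 pups of dams on control chow (CONF) and 5 pups of vehicle-injected dams (CONSC). Low doses were sequenced in males only, with 4 pups each in Aro0.5 (Aroclor 1254, 0.5 mg/kg), BPA0.5 (bisphenol A, also 0.5 mg/kg) and CPF1 (chlorpyrifos, 1 mg/kg). High-dose males were 6 pups of Aroclor 1254 at 5 mg/kg (Aro5), 7 of bisphenol A at 5 mg/kg (BPA5) and 7 of chlorpyrifos at 3 mg/kg (CPF3). Females were 5 CONF, 5 CONSC, 5 Aro5, 4 BPA5 and 4 CPF3 pups. The dose is per day and was given to the dam, so that the dose reaching a pup was not measured here. The tissue was a piece cut out of a brain slice behind the optic chiasm, which per the study's methods held hippocampus and the cortex beside it.

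Dopamine acts through receptors of the D1 class (Drd1, Drd5), which couple to stimulatory G proteins and raise cAMP, and of the D2 class (Drd2 among them), which couple to inhibitory G proteins and lower it. In the striatum, Drd1 marks projection neurons of the direct pathway, whereas Drd2 and the adenosine receptor gene Adora2a mark those of the indirect pathway. Ppp1r1b encodes DARPP-32, which cAMP-dependent phosphorylation turns into an inhibitor of protein phosphatase 1, and Rgs9 encodes a protein that speeds up the switching off of inhibitory G proteins. Both are abundant in striatal projection neurons of either pathway. Drd5 is known for expression in hippocampal and cortical pyramidal neurons rather than in striatal projection neurons.

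The promoter windows of 4 of the 6 genes are shown because Drd1, Drd2 and Rgs9 rose and fell together from pup to pup, whereas Drd5 went the other way. They are RefSeq sequences of the build GRCr8, from 250 bases before to 50 bases after the annotated start, 5′ to 3′ on the strand of the gene. Capitals mark a GC box, GGGCGG on either strand. The windows are chr17:10546354-10546653 (+) for Drd1, chr8:58605153-58605452 (+) for Drd2, chr14:76703295-76703594 (-) for Drd5 and chr10:94770338-94770637 (-) for Rgs9. Ppp1r1b and Adora2a had no entry.
Drd1: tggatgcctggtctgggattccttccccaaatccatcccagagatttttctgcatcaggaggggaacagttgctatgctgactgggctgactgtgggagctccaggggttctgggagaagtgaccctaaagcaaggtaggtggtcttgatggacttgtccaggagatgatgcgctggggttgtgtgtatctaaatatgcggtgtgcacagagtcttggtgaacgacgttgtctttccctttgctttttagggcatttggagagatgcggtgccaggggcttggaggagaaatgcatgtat
Drd2: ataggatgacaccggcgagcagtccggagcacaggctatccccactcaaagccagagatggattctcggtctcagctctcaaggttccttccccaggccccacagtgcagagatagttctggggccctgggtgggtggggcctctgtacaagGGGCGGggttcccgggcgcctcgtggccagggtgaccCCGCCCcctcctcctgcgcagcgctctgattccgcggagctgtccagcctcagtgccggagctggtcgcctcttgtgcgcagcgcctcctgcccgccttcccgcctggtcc
Drd5: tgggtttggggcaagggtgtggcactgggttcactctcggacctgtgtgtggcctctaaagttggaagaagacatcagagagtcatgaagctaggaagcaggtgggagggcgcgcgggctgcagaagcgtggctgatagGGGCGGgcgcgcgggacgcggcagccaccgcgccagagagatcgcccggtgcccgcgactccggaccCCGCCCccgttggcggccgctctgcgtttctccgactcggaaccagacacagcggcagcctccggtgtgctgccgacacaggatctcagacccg
Rgs9: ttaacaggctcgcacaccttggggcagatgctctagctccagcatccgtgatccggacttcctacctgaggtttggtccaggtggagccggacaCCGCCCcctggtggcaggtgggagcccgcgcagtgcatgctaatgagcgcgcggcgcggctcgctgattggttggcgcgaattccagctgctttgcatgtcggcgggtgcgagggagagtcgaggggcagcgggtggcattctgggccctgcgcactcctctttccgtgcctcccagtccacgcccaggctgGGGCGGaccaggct

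The windows of Drd2, Drd5 and Rgs9 each held 2 GC boxes, and that of Drd1 held 0. A GC box was present in 33.1% of all 33469 RefSeq windows of this length. The windows of Drd2, Drd5 and Rgs9 had 67.3%, 67% and 66.3% G and C, against 51.7% in Drd1 and a median of 51.7% over all windows. The letters TATAAA (14.2% of all windows), AGGTCA (16.2%) and TGACGTCA (1.83%), searched on both strands with no overlap with the GC boxes, were in none of the 4. Drd5, which varied opposite to Drd2 and Rgs9, thus had the same number of GC boxes as these. The match of letters is a description of the sequence and says nothing on binding.

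Of 66 libraries, 2 pups had 2 each, which were summed. Total counts ranged from 10644138 to 86206550 per library, with a median of 20740650. Levels are counts per 1000000 counts of the library (CPM), which are not divided by gene length and were compared between pups, not between genes. Library names had 2 forms: the 20 libraries of high-dose males were all of one form, the 12 of low-dose males all of the other, as were 9 of 10 libraries of control males. High dose and library set therefore cannot be told apart in males. Of 10 hippocampal markers in a fixed list, 7 reached a mean of 1 CPM, among them Prox1 (granule cells, 104 CPM) and Neurod6 (pyramidal neurons, 127 CPM), while Fibcd1 had no counts and Lct and Spink8 stayed at 0.181 and 0.237 CPM. All 22 markers in a list of other striatal genes reached a mean of 1 CPM, with Gng7 at 305 CPM, Foxp1 at 187 CPM and Adcy5 at 142 CPM. In such bulk tissue, fewer cells of a type and less RNA per cell cannot be told apart.

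All 6 genes were detected in every pup, and they varied widely between pups. Drd1 was 33.3 ± 21.3 CPM (SD, n = 64), from 8.24 in a BPA5 female to 115 in an Aro5 male, a range of 14-fold. Drd2 was 21.6 ± 13.5 CPM, from 7.22 in an Aro0.5 male to 78.7 in a CONSC female, and Adora2a was 36 ± 25.1 CPM, from 6.59 in an Aro5 male to 149 in the same CONSC female. Ppp1r1b had the widest spread among the 6 genes, 111 ± 85.8 CPM, from 18.5 to 475. Rgs9 was 20.2 ± 10.6 CPM, from 6.16 to 66.9. Drd5 was the receptor with few reads, 1.59 ± 0.744 CPM, from 0.449 to 4.9, and its lowest pup had 7 counts, so that its values carry the largest counting error of the 6.

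**Figure D1:**
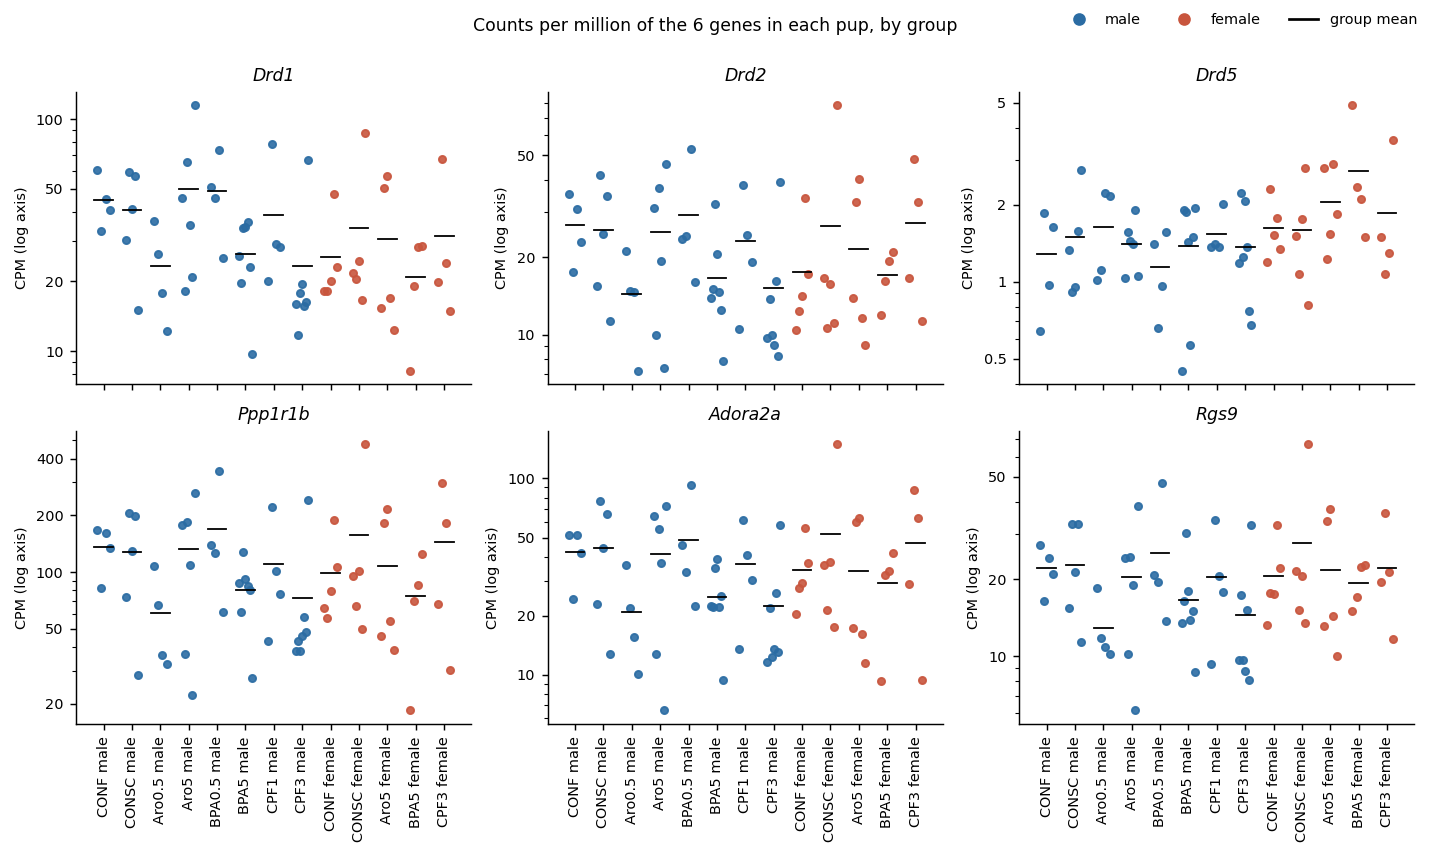
CPM (log axis) of each gene in each of the 64 pups (points, blue male, red female) by group, with group means as bars. For Drd1, Drd2, Ppp1r1b, Adora2a and Rgs9 the same pups stand high, such as the CONSC female 9-1x at 475 CPM of Ppp1r1b, and the groups overlap for every gene.

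Drd1 was examined first in the control pups. The 4 CONF males had 33, 40.5, 45.2 and 60.1 CPM and the 5 CONSC males 15.1, 30.1, 41.1, 56.6 and 59.2 CPM. The 5 CONF females had 18.1, 18.2, 20.1, 23 and 47.6 CPM and the 5 CONSC females 16.6, 20.5, 21.7, 24.4 and 87.2 CPM. Thus 8 of 10 control females lay below 25 CPM and 8 of 9 control males above it, with 1 high female in each control group. This cut was placed after seeing the values, so that the split is no test. The edgeR comparison of these pups, given below, did not call Drd1 (adjusted p = 0.238), and sex and library set are mixed in them.

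Among low-dose males, Drd1 was 12.2, 17.9, 26.2 and 36.5 CPM in Aro0.5, 25.2, 45.8, 50.9 and 73.9 CPM in BPA0.5, and 20, 28, 29.1 and 77.9 CPM in CPF1. The 6 Aro5 males ranged from 18.2 to 115 CPM with a median of 40.3, the 7 BPA5 males from 9.73 to 36.2 CPM with a median of 25.8. In CPF3 males the lowest was 11.7 CPM, the median 16.3 and the highest 66.4. In CPF3 males 6 of 7 pups stood at or below 19.4 CPM and the other, pup 45-1y, far above them. Drd1 in treated females was 12.4, 15.3, 17, 50.4 and 56.8 CPM in Aro5, 8.24, 19.2, 28 and 28.4 CPM in BPA5, and 14.9, 19.8, 24.1 and 67.1 CPM in CPF3. Every treated group overlapped with the controls of its sex.

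Drd2 gave a like picture. CONF males had 17.5, 23, 30.8 and 35.4 CPM and CONSC males 11.3, 15.5, 24.7, 34.6 and 42.1 CPM. CONF females had 10.4, 12.4, 14.1, 17.2 and 34 CPM and CONSC females 10.6, 11.1, 15.7, 16.6 and 78.7 CPM. The high females were the same pups as for Drd1, N4-3x among CONF and 9-1x among CONSC. In Aro0.5 males Drd2 was 7.22, 14.7, 14.8 and 21.1 CPM. CPF3 males had a lowest value of 8.25, a median of 9.97 and a highest value of 39.4 CPM, again in pup 45-1y.

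Ppp1r1b, which encodes DARPP-32, was 82.2, 134, 162 and 167 CPM in CONF males and 28.4, 73.6, 130, 198 and 206 CPM in CONSC males. It was 57.1, 64.9, 79.2, 106 and 189 CPM in CONF females and 49.9, 65.9, 95.8, 102 and 475 CPM in CONSC females. Aro0.5 males had 32.4, 36.5, 67.1 and 108 CPM, and CPF3 males had 38 to 57.6 CPM in 6 pups and 240 CPM in pup 45-1y. These values followed those of Drd1 and Drd2, with the same lowest (8-4y) and the same highest CONSC male (11-4y).

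Adora2a, the adenosine receptor that couples to stimulatory G proteins, reached 24.2, 41.8, 51.3 and 51.8 CPM in CONF males and 12.8, 22.9, 44.1, 66 and 76.5 CPM in CONSC males. In CONF females it was 20.4, 27.8, 29.2, 37.2 and 56.1 CPM and in CONSC females 17.5, 21.5, 36.4, 37.5 and 149 CPM. Rgs9 reached 16.4, 21, 24.2 and 27.1 CPM in CONF males and 11.4, 15.4, 21.3, 32.7 and 32.9 CPM in CONSC males. Both genes overlapped between CONF and CONSC in either sex, with pup 9-1x above the other females.

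Drd5 had another distribution. CONF males had 0.643, 0.975, 1.64 and 1.86 CPM and CONSC males 0.912, 0.953, 1.33, 1.58 and 2.73 CPM. In CONSC females it was 0.808, 1.07, 1.51, 1.76 and 2.79 CPM, with pup 9-1x, the highest of all pups for Drd2, Ppp1r1b, Adora2a and Rgs9, now the lowest female. CONSC male 8-4y, the lowest CONSC male for the other genes, was the highest male for Drd5. BPA5 females had 1.5, 2.11, 2.35 and 4.9 CPM, and the pup with 4.9 CPM, 79-4x, was the lowest of all 64 for Drd1 and Ppp1r1b.

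The 13 groups were then ordered by their means. Drd1 ran from 50 ± 36.3 CPM in Aro5 males (SD, n = 6) to 21 ± 9.49 CPM in BPA5 females (n = 4), and Drd2 from 29.2 ± 16.4 CPM in BPA0.5 males (n = 4) to 14.5 ± 5.66 CPM in Aro0.5 males (n = 4). Ppp1r1b ran from 168 ± 123 CPM in BPA0.5 males to 61 ± 34.9 CPM in Aro0.5 males. Aro0.5 males also had the lowest means of Adora2a, 20.9 ± 11.2 CPM, and Rgs9, 12.8 ± 3.84 CPM, whereas CONSC females had the highest, 52.3 ± 54.7 and 27.5 ± 22.3 CPM. Drd5 ran from 2.72 ± 1.5 CPM in BPA5 females to 1.14 ± 0.41 CPM in BPA0.5 males. For each of the 6 genes, all 12 neighbouring pairs in the order differed by less than the larger of their SDs, which sorting by itself makes likely. The groups held 15.4% (Ppp1r1b) to 24.6% (Drd1) of the variance of log2 CPM, and the SD within groups was 0.61 (Drd5) to 1.06 (Ppp1r1b) on the log2 scale. With 13 groups of few pups, part of such a share arises from the spread between pups alone. It is therefore not a measure of treatment or sex.

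Repeat libraries of a pup lay closer together than the 2 pairs of littermates of 1 sex and treatment. The 2 libraries of CONF female N4-3x had 47.9 and 47.1 CPM of Drd1, and those of CONF male N2-2y 61.8 and 58.4 CPM. The labels give both libraries of N4-3x as the same pup of the same litter, but with different times of dissection, 12.09 and 11.55 (hours and minutes), whereas both of N2-2y have 10.57. Over the 6 genes, repeat libraries differed 1.02- to 1.4-fold, the highest for Drd5 in N4-3x. In contrast, Aro5 males 120-1y and 120-2y, from 1 litter, had 22.3 and 263 CPM of Ppp1r1b (11.8-fold), 6.59 and 72.7 CPM of Adora2a (11-fold) and 7.44 and 46.2 CPM of Drd2 (6.21-fold). Aro5 females 115-13x and 115-7x, also littermates, had 45.8 and 183 CPM of Ppp1r1b (4-fold). In both pairs the pup that was higher in the other 5 genes was lower in Drd5, with 1.91 against 1.05 CPM in the males and 2.77 against 1.23 CPM in the females.

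**Figure D2:**
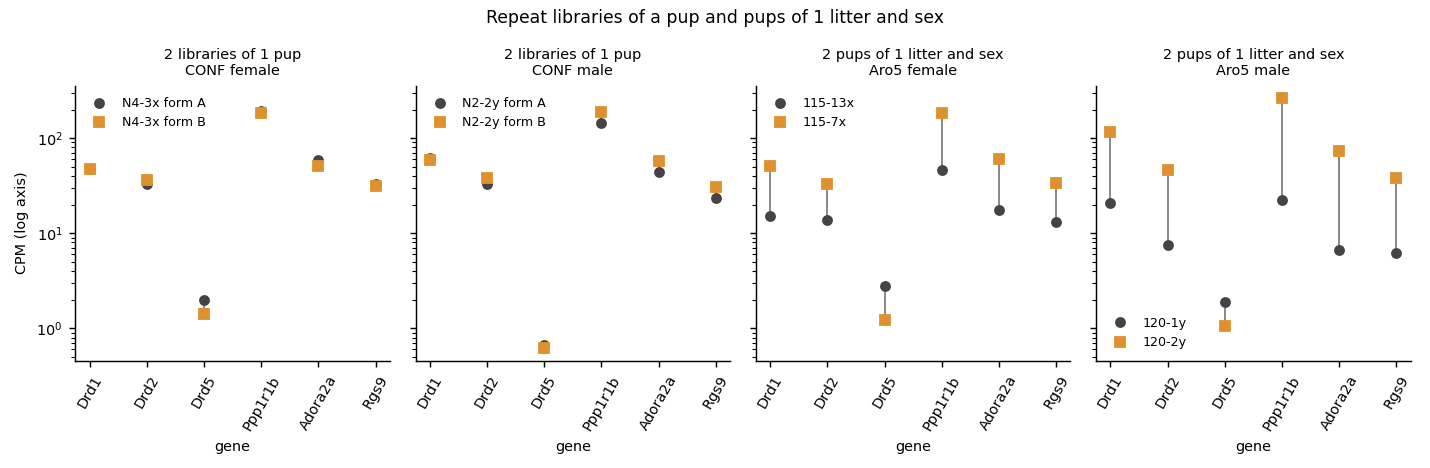
CPM (log axis) of the 6 genes in the 2 libraries of 1 pup (left pair of panels) and in 2 pups of 1 litter, sex and treatment (right pair). Repeat libraries differ at most 1.4-fold, littermates up to 11.8-fold (Ppp1r1b in Aro5 males), with Drd5 in the opposite direction.

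No correlation between male and female littermates was found. Over 18 litters with pups of both sexes, with the mean of treatment and sex subtracted, the log2 CPM of the male and of the female part of the litter gave Pearson's r of -0.39 (Drd5) to -0.04 (Drd2) and rho of -0.30 to 0.09. None of the 6 passed the threshold (permutation test, adjusted p from 0.672 to 0.862 for r). Without the 2 litters farthest from the median, r was -0.19 to 0.17. The time of day at dissection, which the labels give, had r of -0.02 (Drd5) to 0.21 (Adora2a) over 64 pups, and none passed (permutation test, adjusted p from 0.358 to 0.889).

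Across the 64 pups, Drd1, Drd2, Ppp1r1b, Adora2a and Rgs9 rose and fell together, and Drd5 moved against them. For this, the mean of each group was subtracted from log2 CPM, so that treatment and sex do not enter through group means. Library set was not fully removed by this. Both control groups of females held both name forms, and the form of treated females could not be read. The 10 pairs among the 5 genes had r of 0.88 (Drd1 with Rgs9) to 0.97 (Drd2 with Rgs9, Ppp1r1b with Adora2a) and rho of 0.84 to 0.97. Drd5 had r of -0.61 with Drd1, -0.47 with Drd2, -0.62 with Ppp1r1b, -0.55 with Adora2a and -0.42 with Rgs9, and rho of -0.63 to -0.41. All 15 pairs passed the permutation test within groups, with adjusted p of 1.25e-05 for the 10 positive pairs, whose unadjusted p of 1e-05 is the smallest that 100000 permutations can give, and up to 0.0008 for those with Drd5. Without the 2 pups farthest from the median, r was 0.85 to 0.97 for the 10 pairs and -0.62 to -0.39 for those with Drd5.

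The 10 pairs were positive in each of 3 sets of pups, while those with Drd5 lay nearer to 0 in high-dose males. In control and low-dose males r was 0.91 to 0.98 for the 10 pairs and -0.63 to -0.48 for Drd5, in high-dose males 0.79 to 0.98 and -0.50 to -0.18, and in females 0.92 to 0.98 and -0.78 to -0.62. With 1 value per litter r was 0.78 to 0.96 and -0.49 to -0.21. In high-dose males and with 1 value per litter 12 of 15 pairs passed, and those of Drd5 with Drd2, Adora2a and Rgs9 did not. Pups of 1 litter and the shared library total are common to these points.

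**Figure D3:**
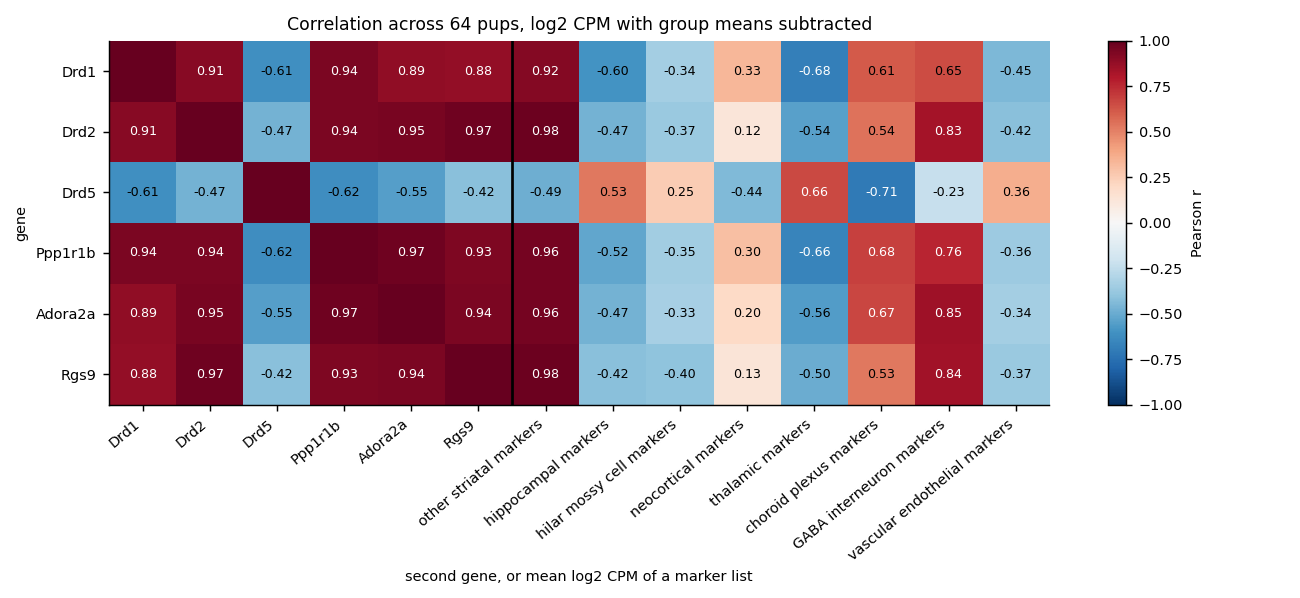
Pearson's r across 64 pups (log2 CPM, group means subtracted) of each gene with the 6 genes (left of the line) and with the mean log2 CPM of 8 marker lists (right). Drd5 has the opposite sign to the other 5 genes in every column but its own, such as -0.71 against 0.53 to 0.68 for choroid plexus markers.

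Levels of 2 genes in 1 pup can be set against each other without regard to gene length, since the factor is the same in every pup. The ratio of Drd1 to Drd2, direct against indirect pathway receptor, was 1.57 ± 0.393 (SD, n = 64) and ranged 4.04-fold, less than either gene alone. It was 1.69 ± 0.398 in the 41 males and 1.35 ± 0.272 in the 23 females, sets that differ in treatment since low doses were in males only. In control pups it was 1.64 ± 0.208 in males (n = 9) and 1.48 ± 0.231 in females (n = 10). The difference in this ratio between the sexes was not tested. The ratio of Ppp1r1b to Adora2a was 3.02 ± 0.491 and ranged only 2.1-fold over pups that differed up to 25.7-fold in Ppp1r1b. The ratio of Drd1 to Drd5, both receptors of the D1 class, was 28.5 ± 26.5 and ranged 65.2-fold.

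The 5 genes followed the rest of the striatal list. Against the mean log2 CPM of the 22 other striatal markers r was 0.92 for Drd1, 0.98 for Drd2, 0.96 for Ppp1r1b, 0.96 for Adora2a and 0.98 for Rgs9 (permutation test, adjusted p = 2.67e-05 over 48 pairs of genes and lists, n = 64). Drd5 had r of -0.49 (adjusted p = 0.00014). Summed over the 22 markers, pups ranged from 656 CPM in BPA5 male 91-6y to 3185 CPM in CONSC female 9-1x, 4.85-fold. Of the 22, 20 had r over 0.5 with Ppp1r1b (90.9%), against 953 of all 14701 genes with a mean of 1 CPM or more (6.48%). The others were Sp9 (0.43) and Rasd2 (0.38). Among the 22 were Penk (0.95) and Pdyn (0.94), the precursors of enkephalin and dynorphin in neurons of the indirect and direct pathway.

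**Figure D4:**
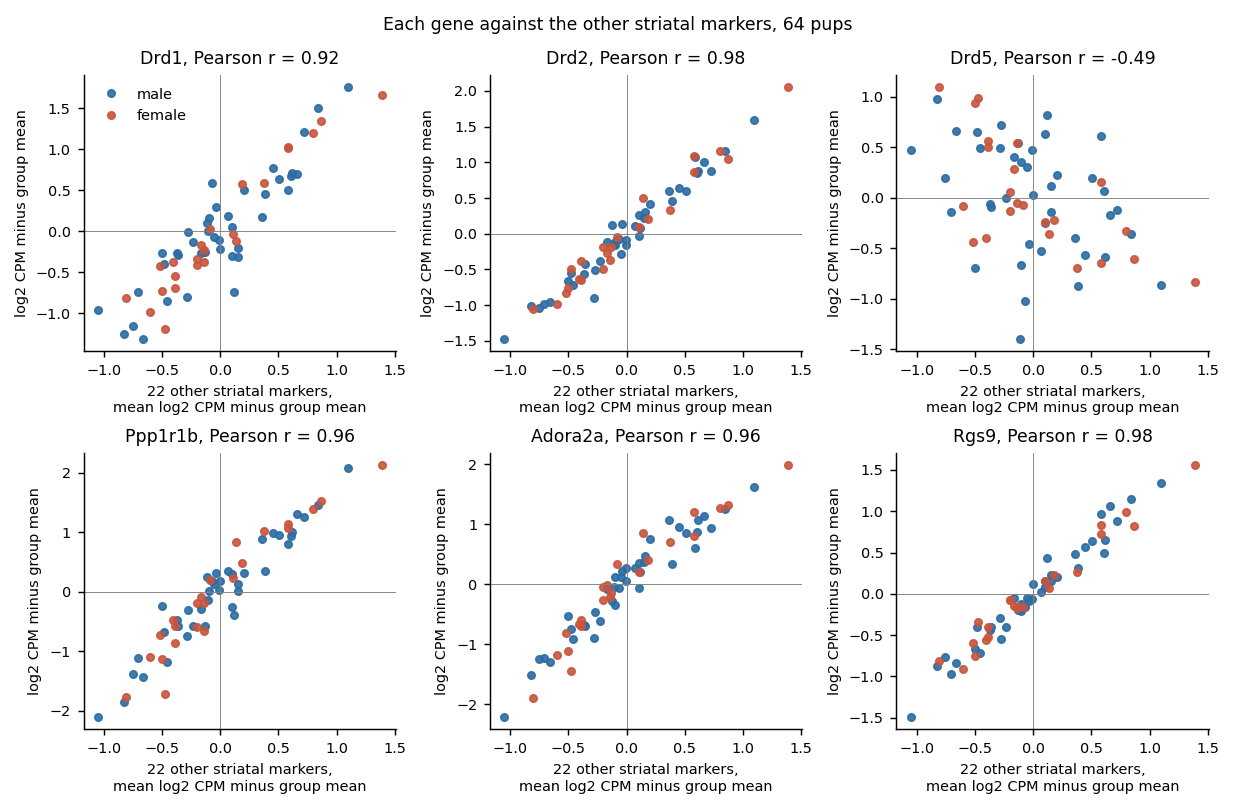
Log2 CPM of each gene (group mean subtracted) against the mean log2 CPM of 22 other striatal markers in the 64 pups. Points of both sexes lie along 1 rising line for all genes but Drd5, which falls with r = -0.49.

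Markers of other tissue moved with the 6 genes too. Thalamic markers (Tcf7l2, Lhx9 and others, 7 of 7 detected) ranged from 128 to 1291 CPM in sum over the pups, and had r of -0.68 with Drd1, -0.66 with Ppp1r1b, -0.54 with Drd2 and 0.66 with Drd5. Choroid plexus markers (9 of 10 detected, Otx2 near 0) ranged from 798 to 4681 CPM, with Ttr, which encodes transthyretin, from 722 to 4369 CPM. They had r of 0.61 with Drd1, 0.68 with Ppp1r1b and -0.71 with Drd5. Markers of GABA neurons (7 of 8 detected, Npy near 0), which include Gad1 and Slc32a1 of GABA synthesis and packaging and are shared by striatal projection neurons, had r of 0.65 with Drd1, 0.85 with Adora2a and -0.23 with Drd5 (permutation test, adjusted p = 0.097 for this last, 2.67e-05 for the other 2).

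The mean of the hippocampal markers went against the 5 genes, with r of -0.60 (Drd1) to -0.42 (Rgs9), and with Drd5, r = 0.53. Gene by gene the list was mixed. Of the 7 detected, 2 had r under -0.5 with Ppp1r1b (median -0.25), and 2 were positive, Dsp (0.45) and Wfs1 (0.13). The sum of the hippocampal markers ranged from 140 CPM in CONSC female 9-1x, the pup with the highest striatal sum, to 392 CPM in BPA5 male 91-6y, the pup with the lowest. The mean of the hilar mossy cell markers had r of -0.40 to -0.33 with the 5 genes and 0.25 with Drd5. Of the 4 detected, Calb2 had r of -0.49 with Ppp1r1b and 0.67 with Drd5. Calcrl, Nmb and Ociad2 had -0.11, -0.01 and 0.12 with Ppp1r1b and 0.08, -0.24 and -0.14 with Drd5. Vascular endothelial markers had r of -0.45 to -0.34 with the 5 genes and 0.36 with Drd5. Neocortical markers had r of 0.33 with Drd1, 0.30 with Ppp1r1b, 0.12 to 0.20 with Drd2, Adora2a and Rgs9, and -0.44 with Drd5. Of 48 pairs of a gene and a list, 43 passed the permutation test. In the choroid plexus list all 9 detected genes had r over 0.5 with Ppp1r1b and in the thalamic list 5 of 7 had r under -0.5, against 4.2% of all genes under -0.5. The part of such tissue in the levels of the 6 genes was not tested beyond these values and the covariate below.

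The genes most like each of the 6 across pups were then taken from all 14701 genes. Among those most like Drd1 were Ankrd63 (r = 0.962), Gng7 (0.953), Ppp1r1b (0.945) and Lamp5 (0.942). Drd2 was nearest to Rgs9 (0.970), Penk (0.966), the retinoid receptor genes Rxrg (0.960) and Rarb (0.958), and Tac1 (0.958). Adora2a was nearest to Penk (0.982), Ppp1r1b (0.974), Rarb (0.965), Crabp1 (0.959) and Drd2 (0.953).

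Ppp1r1b was nearest to Adora2a (0.974), Gng7 (0.974), Lamp5 (0.965), Rarb (0.962) and Rxrg (0.960), and Rgs9 to Drd2 (0.970), Entpd3 (0.950), Penk (0.948), Adora2a (0.943) and Rxrg (0.939). Drd5 shared no neighbour with these. Its nearest genes were Pkp4 (0.809), Ptpn3 (0.801), Adamts15 (0.800), Nrn1 (0.800) and Olfm1 (0.797), of which Nrn1 encodes neuritin, a protein of growing neurites. These are correlations over 64 pups given as a description.

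Treatment was then tested in males of the high doses. By the quasi-likelihood F test of edgeR, with p values adjusted by Benjamini-Hochberg, 0 of the 6 genes had an adjusted p under 0.05 in Aro5, BPA5 or CPF3 against the 9 control males, and DESeq2 also called 0 in each. Over all 16393 genes tested, 0.195% were called for Aro5, 0.189% for BPA5 and 0.159% for CPF3. At an unadjusted p under 0.05, 0 of the 6 were counted for Aro5, 0 for BPA5 and 3 for CPF3, by either tool, beside 11.8%, 9.1% and 12.6% of all genes in edgeR. The treated groups share their controls, so that their values are not independent. P values here measure the spread between pups, some of which share a litter.

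Drd1 in CPF3 males had a log2 difference of -0.84 (95% interval -1.60 to -0.08, SE 0.37, adjusted p = 0.367), Drd2 at -0.76 (SE 0.37, adjusted p = 0.391) and Adora2a at -0.94 (SE 0.42, adjusted p = 0.372). Ppp1r1b was at -0.83 (SE 0.45), Rgs9 at -0.62 (SE 0.32) and Drd5 at -0.02 (SE 0.31). BPA5 males had -0.69 for Drd1 (SE 0.37, adjusted p = 0.567) and -0.79 for Adora2a (SE 0.42, adjusted p = 0.565), and Aro5 males 0.25 for Drd1 (SE 0.38) and -0.05 for Adora2a (SE 0.43). None was called. Without pup 45-1y the values in CPF3 males were larger, at -1.38 for Drd1 (adjusted p = 0.0918) and -1.52 for Ppp1r1b (adjusted p = 0.125), and still not called. The median over the 22 other striatal markers was -0.44 in CPF3, -0.33 in BPA5 and 0.01 in Aro5 males, against 0.00 to 0.01 over all genes, and 0 of 22 were called in each. With the mean of these markers as a covariate, which was added after seeing the data, Drd1 in CPF3 males was at -0.30 (SE 0.18) and Adora2a at -0.14 (SE 0.13).

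Among low-dose males, 0 of the 6 genes were called in Aro0.5, BPA0.5 and CPF1 by edgeR or DESeq2, against 0.124%, 0.0434% and 0% of 16139 genes. At an unadjusted p under 0.05, 5 of 6 were counted in Aro0.5 by either tool and 0 in the other groups, beside 18.5% of all genes in edgeR for Aro0.5, 8.58% for BPA0.5 and 2% for CPF1. Aro0.5 males had log2 fold changes of -0.81 for Drd1 (SE 0.35, adjusted p = 0.233), -0.80 for Drd2 (SE 0.35, 0.237), -1.05 for Ppp1r1b (SE 0.48, 0.247), -1.01 for Adora2a (SE 0.43, 0.226) and -0.75 for Rgs9 (SE 0.32, 0.219), and of 0.36 for Drd5 (SE 0.30, 0.511). The 22 other markers had a median of -0.56, with 0 called. In the same pups markers of other tissue had medians of 0.55 for thalamic (5 of 7 at an unadjusted p under 0.05), -0.52 for choroid plexus (6 of 9), -0.42 for neocortical (5 of 9) and -0.40 for GABA neuron markers (4 of 7), 0 of them called, and their part in the values of the 6 genes was not tested. The mean of the 22 other striatal markers was also used as a covariate. The 5 genes were then at 0.00 (Drd1, SE 0.15) to 0.10 (Ppp1r1b, SE 0.15) and Drd5 at -0.10 (SE 0.28), each within 1 SE of 0. BPA0.5 males had -0.13 (Drd5) to 0.39 (Ppp1r1b) and CPF1 males -0.24 (Adora2a) to 0.21 (Drd5).

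Females of Aro5, BPA5 and CPF3 were compared with 10 control females. The edgeR test called 0 of the 6 genes in each, as did DESeq2, and 0%, 0% and 0% of 16992 genes. At an unadjusted p under 0.05, 1 gene was counted in BPA5 by either tool and 0 in the others, beside 4.08% of all genes in edgeR for BPA5, 3.23% for Aro5 and 8.79% for CPF3. It was Drd5, higher by 0.76 on the log2 scale (SE 0.34, adjusted p = 0.925), where the other 5 genes had -0.77 (Ppp1r1b) to -0.31 (Rgs9). Without control pup 9-1x, these 5 were at -0.27 (Ppp1r1b) to 0.11 (Drd2) in BPA5 females, at 0.09 (Adora2a) to 0.44 (Drd2) in Aro5 and at 0.19 (Rgs9) to 0.78 (Drd2) in CPF3 females. Aro5 females had -0.36 (Adora2a) to 0.40 (Drd5) and CPF3 females -0.12 (Rgs9) to 0.38 (Drd5). Drd1 in CPF3 females was at 0.07 (SE 0.46), and without pup 38-5x at -0.57.

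**Figure D5:**
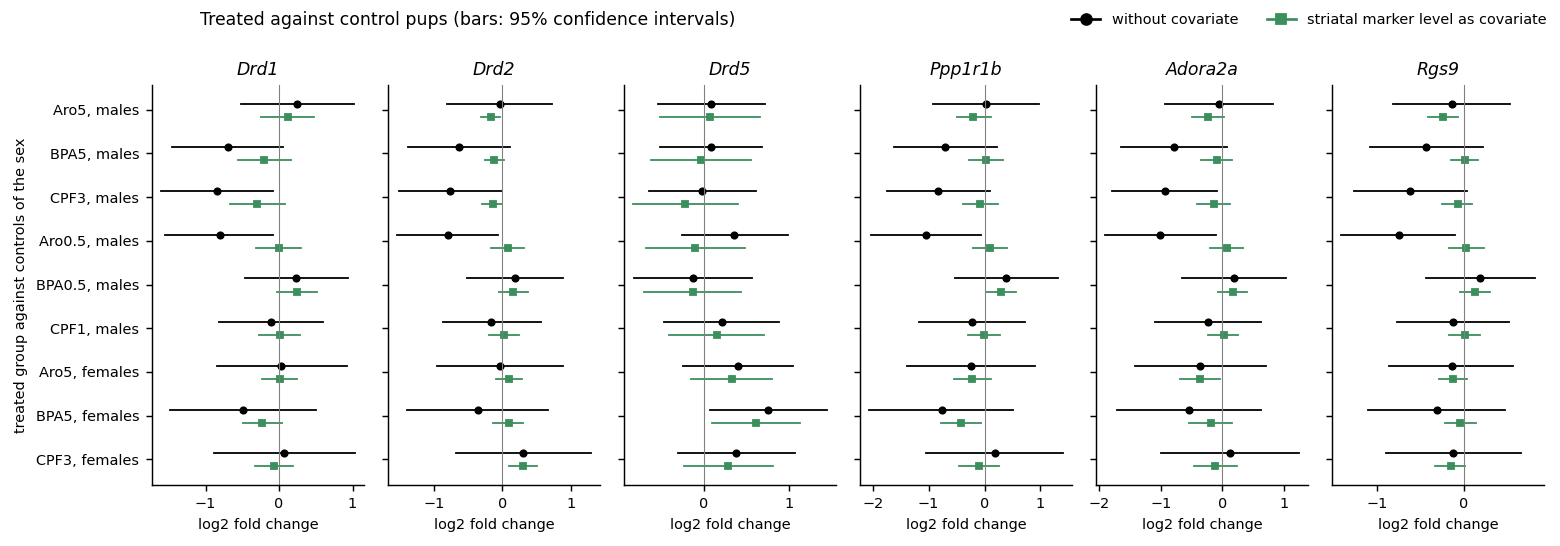
Log2 fold change of each gene in each treated group against the controls of its sex, with 95% confidence intervals, without covariate (black) and with the mean of 22 other striatal markers as a covariate (green). No gene passed the adjusted threshold, and in Aro0.5 males the 5 genes other than Drd5 move from -1.05 to -0.75 without to 0.00 to 0.10 with the covariate.

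The route of the control treatment gave no call. CONSC minus CONF was -0.17 (Drd1) to 0.26 (Drd5) in males and -0.10 (Drd5) to 0.65 (Ppp1r1b) in females on the log2 scale. The edgeR test called 0 of 6 in both, against 0.013% of 15387 and 0% of 16618 genes, with 0 at an unadjusted p under 0.05, and DESeq2 called 0 of 6 and 0 of the 4 it tested. In females this rested on pup 9-1x, since without it the differences of Drd1, Drd2, Ppp1r1b, Adora2a and Rgs9 were at -0.39 to -0.22 in place of 0.41 to 0.65.

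Whether the sexes responded differently was tested as an interaction over controls and high doses. Of the 6 genes 0 were called for Aro5, BPA5 and CPF3 by edgeR or DESeq2, with 0 at an unadjusted p under 0.05, against 0.0984%, 0.0405% and 0.0463% of 17282 genes. The CPF3 response of females minus that of males was 0.90 for Drd1 (SE 0.61, adjusted p = 0.885) and 1.06 for Drd2 (SE 0.61, adjusted p = 0.872). Without CPF3 female 38-5x these were 0.26 and 0.66, and without CPF3 male 45-1y 1.45 and 1.51. Values for Aro5 were -0.30 to 0.29 and for BPA5 -0.07 to 0.67.

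Between the sexes, control females were compared with control males. Without a further term edgeR called 0 of the 6 genes, with 0 at an unadjusted p under 0.05 and 0 by DESeq2, although 30.9% of 15763 genes were called. Female minus male was -0.47 for Drd1 (SE 0.29, adjusted p = 0.238), -0.20 for Drd2 (SE 0.35, adjusted p = 0.702) and 0.28 for Drd5 (SE 0.25, adjusted p = 0.428), and 0.01 to 0.14 for Ppp1r1b, Adora2a and Rgs9. Of 10 male and 11 female control libraries, 9 and 5 were of one name form and 1 and 6 of the other, so that sex and library set are mixed. Without pup 9-1x, Drd1 was at -0.81 (SE 0.21, adjusted p = 0.00517) and Drd2 at -0.67 (SE 0.24, adjusted p = 0.0301), and both were called.

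With the litter as a term, over 7 litters with 1 control pup of either sex, edgeR called Drd1 at -0.84 (SE 0.20, adjusted p = 0.0106) and Drd2 at -0.76 (SE 0.19, adjusted p = 0.0142), 2 of 6 where 20.2% of 15600 genes were called. The litter as a random block in limma-voom over all control pups gave Drd1 at -0.54 (adjusted p = 0.206) and called 0 of 6. In libraries of the first name form alone, Drd1 was at -0.10 (SE 0.35, adjusted p = 0.898) and Drd2 at 0.24 (SE 0.40, adjusted p = 0.762). The difference in Drd1 and Drd2 between the sexes of controls thus depended on the pups and libraries that were used.

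Setting the sexes at an equal level of striatal markers changed which genes were called. With all 22 markers as a covariate, 2 of 6 were called, Drd1 at -0.58 (SE 0.07, adjusted p = 1.49e-06) and Drd2 at -0.41 (SE 0.06, adjusted p = 2.20e-05), where 34.5% of genes were called. However, 5 of these markers differed between the sexes in controls or high-dose pups, among them Sp9 (log2 difference in controls 2.94, SE 0.27) and Six3 (0.99, SE 0.27), both higher in females. With the remaining 17 as the covariate, Drd1 was at -0.27 (SE 0.06, adjusted p = 0.00149) and Drd2 at -0.05 (SE 0.07, adjusted p = 0.589). Ppp1r1b was then at 0.25 (adjusted p = 0.0262), Adora2a at 0.29 (adjusted p = 0.0149) and Rgs9 at 0.32 (adjusted p = 0.000209), so that 4 of 6 were called, where 32.3% of genes were called. With the litter term and these 17 markers 0 were called, with Drd1 at -0.19 (SE 0.11, adjusted p = 0.276). These covariates were chosen after seeing the data.

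High-dose pups, 20 males and 13 females with treatment as a term, allowed a look at sex in pups that the controls do not share. Drd5 was higher in females by 0.73 on the log2 scale (SE 0.21, adjusted p = 0.00553) and was the 1 gene of 6 called, where 40.1% of 17256 genes were called. Its CPM was 1.03 to 1.91 in Aro5 males and 1.23 to 2.87 in Aro5 females, 0.449 to 1.94 in BPA5 males and 1.5 to 4.9 in BPA5 females, and 0.68 to 2.22 in CPF3 males and 1.07 to 3.58 in CPF3 females, so that the sexes overlapped in each. Drd5 stayed called in all 33 fits that left out 1 pup (0.58 to 0.79, adjusted p up to 0.0293), with DESeq2 and with the litter as a block in limma-voom (0.74, adjusted p = 0.00553). In the same comparison thalamic markers had a median of 0.27 (2 of 7 higher in females), hippocampal markers 0.32 (3 of 7 higher) and GABA neuron markers 0.39 (3 of 7 higher), and choroid plexus markers -0.11 (0 of 9 called). Their part in the difference in Drd5 was not tested. Drd1 was at -0.17 (SE 0.30, adjusted p = 0.688). With the 17 markers as a covariate, Drd1 was at -0.24 (adjusted p = 0.0318), Drd2 at 0.23 (adjusted p = 0.00717), Drd5 at 0.70 (adjusted p = 0.00222) and Rgs9 at 0.33 (adjusted p = 0.00144), 4 of 6 where 42.2% of genes were called. With these 17 markers Drd2 was at -0.05 in controls and at 0.23 in high-dose pups, and Drd1 was lower and Rgs9 higher in females of both sets. The 17 were what remained once markers that differed by sex in these same pups had been dropped. The 2 sets are therefore no independent support for each other. The name form of the treated females could not be read from the labels, so that sex and library set cannot be told apart in these pups.

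Further genes of dopamine signalling were set against Ppp1r1b and Drd5. Of a list of 39, which includes dopamine synthesis and uptake, G proteins, protein kinase A, phosphatase 1 and G protein regulators, 33 had a mean of 1 CPM or more. Among genes of monoamine synthesis and transport, mean levels were 0.152 CPM for Slc6a3, the dopamine transporter, 0.246 CPM for Dbh, which makes noradrenaline, and 2.25 CPM for Th, the first enzyme of dopamine synthesis. Ddc, the next enzyme, had 6.76 CPM and Slc18a2, the vesicular monoamine transporter, 14.8 CPM. The receptors Drd3 and Drd4 stayed at 0.0767 and 0.0647 CPM. Ppp2ca was at 0.000468 CPM, with at most 1 count in a pup, and Rgs11 had no row. Whether values at or near 0 in the lists, as for Ppp2ca, Npy and Fibcd1, reflect expression or the assignment of reads to genes was not tested. The most abundant, Gnao1, Gnas and Prkar1b, had r of -0.41, -0.11 and -0.20 with Ppp1r1b.

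Of the 33, 3 had r over 0.5 with Ppp1r1b (9.09%, against 6.48% of all genes) and 3 had r under -0.5 (9.09%, against 4.2%). These were chosen once their values had been seen, namely Arpp21 (0.89), a further cAMP-regulated phosphoprotein of the striatum, Gnal (0.82), the G protein that couples Drd1 and Adora2a to adenylyl cyclase there, and Gnb5 (0.57), the partner of Rgs9, and on the other side Kcnj6 (-0.86), Slc18a2 (-0.57) and Prkar2a (-0.53). With Drd5, the signs turned, with Arpp21 at -0.63 and Slc18a2 at 0.73.

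No gene of the dopamine list was called in a treated group of either sex, with 0 to 11 of 33 at an unadjusted p under 0.05, most in Aro0.5 males, where 18.5% of all genes were below it. In control pups edgeR called 4 of 33 higher and 8 lower in females at a Benjamini-Hochberg adjusted p under 0.05, beside 30.9% of all genes called. The largest differences were Cdk5r1, the activator of Cdk5, at 0.68 (SE 0.09, adjusted p = 4.02e-06), and Caly at 0.55 (SE 0.09, adjusted p = 3.64e-05), followed by Maob at -0.27 (adjusted p = 0.0433) and Arrb2 at 0.26 (adjusted p = 0.00136).

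In the adenosine list 7 of 10 genes reached a mean of 1 CPM and Adora3 had no counts. None was called in a treated group. In control pups 2 of 7 were called for sex, beside 30.9% of all genes, and in females Entpd2 was higher (0.22, SE 0.07, adjusted p = 0.0227) and Adk lower (-0.20, SE 0.05, adjusted p = 0.00422) than in males. Adora1, the A1 receptor, had r of -0.61 with Ppp1r1b and 0.68 with Drd5, whereas Adora2a had -0.55 with Drd5. Adora2b, named after its values were seen, lay on the side of Adora1, with -0.51 and 0.56. These 2 of 7 genes had r under -0.5 with Ppp1r1b (28.6%, against 4.2% of all genes). The receptors of one transmitter thus fell on either side, as Drd1 and Drd5 did for dopamine.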

How the data were processed

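RNA of dorsal hippocampus of 64 Long Evans pups at PND 6 was sequenced in 66 libraries. For each library the authors deposited raw counts per gene, made with STAR and featureCounts on the rat build Rnor_6.0. Tool versions, and how reads matching several genes were counted, are not given in the sources used here. Groups were taken from the labels, libraries of the same pup were added up, and the 2 kinds of controls were joined within a sex, as the study did.

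Treated and control pups were compared with edgeR 4.0.16 in R 4.3.3 (TMM, filterByExpr, quasi-likelihood F test, p values adjusted by Benjamini-Hochberg over all genes, threshold 0.05). The SE was derived from the log2 fold change and F. CPM was computed from the counts, and correlations used log2 CPM with 0.5 counts added, minus group means, with 2-sided tests by 100000 permutations of pups within groups (Python 3.11.15, numpy 2.4.6, pandas 2.3.3, scipy 1.17.1, matplotlib 3.10.9). The fits and correlations were tested on simulated data.

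The 6 genes and the gene lists were chosen with earlier results of these data known. Further genes named are, for each list, those called, the 3 with the highest mean CPM and those near 0, and the 5 genes most like each of the 6, unless stated otherwise. Some genes that this names are not reported here. Alternatives were leaving out each pup, no filter beyond 1 count, DESeq2 1.42.0 and its size factors, pups within the time window of the methods, controls of 1 route, name form as a covariate, the litter as replicate block (in edgeR, or in limma 3.58.1), 2 counts added, TMM-scaled library sizes, subsets of pups and 1 value per litter. The pairing of sexes comes from the shared dam. Marker covariates and the fit of sex in high-dose pups were added after seeing the data. Promoters are of GRCr8, and no coordinate was carried over to Rnor_6.0.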

Additional observations from a re-analysis of the deposited data

Results flagged for a closer look

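Within each group of 4 to 7 pups, the highest and the lowest pup were compared with the rest by Dixon's gap ratio at the 95% level. Of 78 sets of 1 gene in 1 group, 15 held a pup that stood apart, in all 15 the highest pup. The sets are not independent since the genes move together. The ratio was taken on CPM and not on log2 CPM, which makes a high pup more likely to be flagged. The count of 15 was therefore not set against chance.

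CONSC female 9-1x stood apart for 5 of the 6 genes, with 87.2 CPM of Drd1 (the others 16.6 to 24.4), 78.7 CPM of Drd2 (10.6 to 16.6), 475 CPM of Ppp1r1b (49.9 to 102), 149 CPM of Adora2a (17.5 to 37.5) and 66.9 CPM of Rgs9 (13.5 to 21.6). CPF3 male 45-1y stood apart for the same 5 genes, with 66.4 CPM of Drd1 (the others 11.7 to 19.4), 39.4 CPM of Drd2 (8.25 to 16.2), 240 CPM of Ppp1r1b (38 to 57.6), 57.8 CPM of Adora2a (11.6 to 26.2) and 32.6 CPM of Rgs9 (8.06 to 17.3). CONF female N4-3x stood apart with 47.6 CPM of Drd1 (18.1 to 23) and 34 CPM of Drd2 (10.4 to 17.2), and its 2 libraries gave 47.9 and 47.1 CPM of Drd1.

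Single genes stood apart in 3 more pups. CPF1 male 21-1y had 77.9 CPM of Drd1 (20 to 29.1), CPF1 male 63-5y had 2.01 CPM of Drd5 (1.37 to 1.4) and BPA5 male 81-1y had 30.3 CPM of Rgs9 (8.7 to 17.9). In each of the 5 pups 9-1x, 45-1y, N4-3x, 21-1y and 81-1y the sum of the 22 other striatal markers was also the highest of its group.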

How the results depend on the processing

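The counts of 0 of the 6 genes called for treatment, route and sex by treatment were the same under every alternative run. For sex in controls 2 were called with the litter term as replicate block, 2 with the 22-marker covariate, 4 with the 17-marker covariate, 2 with that covariate in libraries of 1 name form, and 0 to 2 with 1 pup left out (2 without 9-1x). Of the 15 correlations between the 6 genes, 12 passed in high-dose males and with 1 value per litter. Of the 48 with marker lists, where 43 passed, 24 did in control and low-dose males, 26 in high-dose males and 23 with 1 value per litter, fits with fewer points. Drd1 with neocortical markers was at -0.05 in females and -0.01 with 1 value per litter, and Ppp1r1b with these markers at -0.07 and -0.11. Between littermates 0 to 1 correlation passed with 1 litter left out (1 without litter 8).

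With the 22-marker covariate the sign turned in 26 of 90 log2 values, in 14 of them with neither value beyond its SE. The other 12 were Ppp1r1b (-0.20) in Aro5 males, Ppp1r1b (0.02) and Rgs9 (0.01) in BPA5 males, Drd2 (0.08), Drd5 (-0.10), Ppp1r1b (0.10), Adora2a (0.07) and Rgs9 (0.03) in Aro0.5 males, Drd2 (0.10) in Aro5 females, Ppp1r1b (-0.16) and Adora2a (-0.09) for sex in controls and Ppp1r1b (-0.05) for the CPF3 interaction. The litter term as replicate block gave -0.51 for Ppp1r1b, -0.43 for Adora2a and -0.22 for Rgs9 for sex in controls, and the litter as a block in limma-voom changed no call of the 6 genes. Name form as a covariate, with 1 control male library of the form of the high-dose males, gave Drd5 1.10 in CPF3 males. The cause of these turns was not tested.

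With 1 pup left out, 53 of 90 log2 values turned sign in some fit, 42 of them with neither value beyond its SE. The ranges of the other 11 follow. Rgs9 in BPA0.5 males was at -0.32 to 0.41, and in females Drd2 in Aro5 at -0.39 to 0.44, Drd1 in CPF3 at -0.57 to 0.41 and Drd5 in CPF3 at -0.29 to 0.57. For CONSC minus CONF in females the ranges were -0.29 to 0.77 (Drd1), -0.39 to 0.96 (Drd2), -0.34 to 1.01 (Ppp1r1b), -0.28 to 0.86 (Adora2a) and -0.22 to 0.64 (Rgs9), and for sex in controls -0.50 to 0.11 (Ppp1r1b) and -0.42 to 0.17 (Adora2a). Pup 9-1x decided the latter 7 and Drd2, 73-4y Rgs9, 38-5x Drd1 and 45-6x Drd5. In the interaction fit only treated pups were left out.

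Over all genes, DESeq2 called more than edgeR, with 101 against 32 (Aro5), 63 against 31 (BPA5) and 82 against 26 (CPF3) in males, 242 against 20 (Aro0.5) and 37 against 7 (BPA0.5) in low-dose males, 34 against 17, 15 against 7 and 16 against 8 for the interactions and 1, 1 and 3 against 0 in females. DESeq2's size factors gave 11 for BPA0.5, and no filter gave 11 (Aro5) and 5 (CPF3) for the interactions. Only pups within the time window gave 818 (Aro5) and 8 (BPA5) in males, 0 (Aro0.5) and 1 (BPA0.5), and 609, 0 and 1 for the interactions. Controls of the same route gave 15 (Aro5) and 14 (BPA5), 1 (Aro0.5) and 0 (BPA0.5). Name form as a covariate gave 0 for each high dose in males, 13 (Aro0.5) and 1 (BPA0.5). The 22-marker covariate gave 0 for Aro0.5, and it and the litter block in limma-voom 11 for the BPA5 interaction. For sex in controls libraries of 1 name form called 1847 (2087 with 17 markers) and the litter term 3144 (2778 with 17 markers), against 4865. Few counts limit Drd5, with 7 in its lowest pup.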

Other observations

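The genes that went most against each of the 6 across the 64 pups were named after their values were seen. Whether they share a function was not tested. Kcnj6, a potassium channel subunit opened by inhibitory G proteins, had Pearson's r of -0.874 with Adora2a and -0.856 with Ppp1r1b. Homer2, a scaffold protein of glutamate synapses, had -0.877 with Drd2, -0.852 with Adora2a and -0.851 with Rgs9, and Fgf13 had -0.867 with Drd2 and -0.868 with Rgs9. Drd1 went most against Rtn4rl1 (-0.856), Tmem150c (-0.855) and Cntn2 (-0.834), a cell adhesion molecule of axons. For Drd5 the lowest were Col14a1, a collagen, at -0.821, and LOC100362710 and Prr32, both at -0.752. Cdk14 had -0.861 with Ppp1r1b and -0.849 with Adora2a. F13a1 had -0.856 with Ppp1r1b, Raver2 -0.865 with Drd2 and Mturn -0.852 with Rgs9. These are descriptions over pups that share library totals and partly litters.

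Single markers of other tissues, named after their values were seen, are set beside the median r of their list with Ppp1r1b. Lamp5, listed as neocortical, had r of 0.96 with Ppp1r1b, where the list had a median of -0.06. Among interneuron markers (median 0.71) Nkx2-1 had the highest r with Ppp1r1b, 0.85. Pvalb of that list went the other way, with -0.28 for Ppp1r1b and 0.52 for Drd5. In the thalamic list (median -0.60) Lef1 had -0.79 with Ppp1r1b and 0.75 with Drd5. Slc17a6, the vesicular glutamate transporter of subcortical neurons, had -0.71 and 0.70. Prkcd, also listed as thalamic, had only -0.02 with Ppp1r1b and -0.24 with Drd5.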
